A study of Rattus norvegicus with 6 samples.

Results

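The genes described here handle osmotic stress and cell volume. They were given as a list of 9 symbols: Nfat5, Slc5a3, Slc6a6, Akr1b1, Slc12a2, Slc12a4, Lrrc8a, Aqp1 and Sgk1. Of these, 8 had a row among the 20675 genes of the table. Slc5a3, which encodes the sodium-coupled uptake carrier for myo-inositol, had no row, and only its promoter sequence was searched. RNA was sequenced from primary cells of the disc of the rat temporomandibular joint, the fibrous pad of the jaw joint. In 3 samples the cells had been kept for 24 h with GSK101, which opens the calcium channel TRPV4 as its agonist, and in the 3 control samples with its solvent DMSO for the same 24 h. The dose of GSK101, the rat strain, age and sex were not stated, nor was whether replicates were separate animals or cultures. Each p-value below thus speaks only of the spread among these 6 samples, which could be technical.

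A cell placed in a medium of changed osmotic strength swells or shrinks within minutes and then restores its volume by moving ions and small organic solutes, with water following. In shrinkage, the cotransporter NKCC1 loads chloride, and the transcription factor NFAT5 switches on carriers and enzymes that accumulate organic osmolytes such as taurine, myo-inositol, betaine and sorbitol. In swelling, the potassium-chloride cotransporters and the LRRC8 anion channel release solutes. TRPV4 itself opens on hypotonic swelling, and cells of cartilage and disc live in a matrix whose osmotic strength changes with load.

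Values are RPKM, reads scaled by gene length and by the total counted to genes. Comparisons between libraries also depend on the scaling, as given below. The libraries held 43061102 to 45705238 counted reads. Of the fibroblast and matrix markers, 7 of 8 were in the table and all 7 had a mean RPKM of at least 1, with Col1a1 at 1903 and Col3a1 at 3521 in the controls. Of these 7, 4 rose (Dcn, Lum, Fn1 and Pdgfra), though the Fn1 libraries of the groups overlapped, and Thy1 fell. Col1a1 and Col3a1, lower at 1637 and 3284 RPKM with GSK101, were not called. The 7 chondrocyte markers summed to 42.2 to 52.4 RPKM in the controls against 54.4 to 74.1 with GSK101. Within that list Col2a1 stood at 0.016 in both groups, while Prg4, the lubricin gene, rose 2.84-fold from 11.0 to 31.2 RPKM (adjusted p = 0.0037 by limma). Of the 4 tested chondrocyte markers the other 3, Sox9, Acan and Chad, were not called. Their means were 2.80, 33.6 and 0.546 RPKM in the controls and 2.46, 31.9 and 0.541 with GSK101. The 8 smooth muscle and pericyte markers had a summed RPKM of 5493 to 5709 in the controls, against 3038 to 3320 after GSK101. Most of this sum was Acta2, with means of 4946 and 2734 RPKM. Of the 7 tested 5 fell, among them Acta2 and Myh11. The other 2, Cspg4 and Des, were not called, and their means were 1.15-fold and 1.34-fold higher with GSK101. The untested Rgs5, with at most 8 reads in any library, was at 0.129 and 0.212 RPKM. Of 4 tested skeletal muscle markers 3 fell (Acta1, Myh4 and Myh3), from 12.4, 2.06 and 0.596 RPKM to 7.69, 1.09 and 0.179. Tnnt3 was not called, at 4.37 and 4.97 RPKM, and the untested Ckm and Myog had at most 4 reads in any library. Calls made up 71.4% of tested fibroblast, 25.0% of chondrocyte, 71.4% of smooth muscle and 75.0% of skeletal muscle markers. Among all tested genes the share was 31.9%. The part of these shifts in any result below was not tested, and in these bulk samples fewer cells of a type and less RNA per cell cannot be told apart.

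Of the 8 genes, 4 rose with GSK101 and 1 fell. Slc12a2, Aqp1, Lrrc8a and Nfat5 were higher, by 1.40-fold, 1.35-fold, 1.25-fold and 1.24-fold in the ratio of the mean RPKM, and Slc6a6 was 1.34-fold lower. Akr1b1, Slc12a4 and Sgk1 did not pass the test. The test was limma on log2(RPKM + 0.5), two-sided, with Benjamini-Hochberg adjustment over the 12801 genes that reached an RPKM of 0.5 in at least 3 libraries, and all 8 genes entered it. A gene was called at an adjusted p under 0.05. Among all tested genes, 31.9% were called, 20.1% higher and 11.9% lower, so a call by itself was common in this comparison. The 2 groups of 3 libraries did not overlap for 6 of the 8 genes and for 47.3% of all tested genes. The median log2 fold change was 0.18 over the 8 genes and 0.03 over all tested genes, and the median of its absolute value was 0.29 and 0.16.

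The share of calls that were higher moved with the scaling between libraries. It was 62.9% for the deposited RPKM, 72.4% once these were rescaled to TPM, 52.5% with median-ratio scaling, 48.1% with quantile normalization and 46.8% with the trend of each library with gene length removed. The median log2 fold change of all genes was 0.032, 0.069, -0.0027, -0.024 and -0.024 in the same order, so its sign also moved. Slc12a2, Aqp1, Lrrc8a and Slc6a6 kept their calls and directions under all 18 alternatives, which are listed with the processing.

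**Figure D1:**
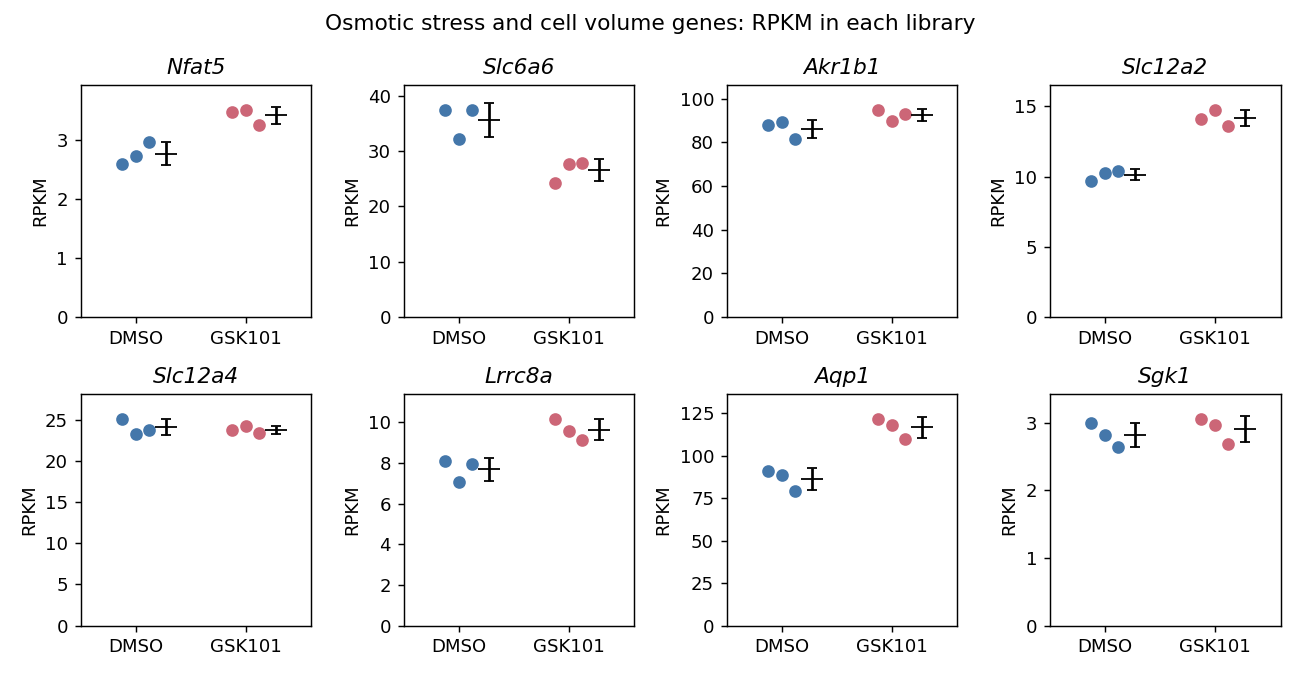
RPKM of the 8 genes in each of the 6 libraries, with a panel and a vertical axis from 0 for each gene. Coloured points are libraries and the black bar beside them is the mean with its SD (n = 3). For Slc12a2, Aqp1, Lrrc8a and Nfat5 the lowest GSK101 point is above the highest DMSO point, for Slc6a6 the reverse holds, and the groups overlap for Slc12a4 and Sgk1.

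Nfat5 encodes the transcription factor of the tonicity response. On the Rnor_6.0 build, which is used for all gene positions here, it occupies chromosome 19, 38446059 to 38533735, minus strand. Its RPKM was 2.59, 2.73 and 2.97 in the control libraries and 3.48, 3.51 and 3.26 with GSK101, on 1605 to 2158 reads per library. All 3 treated libraries lay above all 3 controls, by 0.284 RPKM at the nearest pair. The means were 2.76 ± 0.19 and 3.42 ± 0.14 (SD, n = 3). On the log2 scale this was a rise of 0.26 with an SE of 0.07 (adjusted p = 0.0298 by limma).

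This was the least stable of the 5 calls. The exons of Nfat5 span 13565 bases in the table, longer than those of 99.8% of tested genes, and long genes were higher with GSK101 in general. Over the 97 tested genes of at least 10000 bases the median log2 fold change was 0.27 and 56.7% were called higher, against -0.01 and 13.5% over the 5934 tested genes under 2000 bases. With the length trend of each library removed, the log2 fold change of Nfat5 was -0.03 (adjusted p = 0.82 by limma). Its adjusted p was also above the threshold without control replicate 1 (0.0815), control replicate 2 (0.0755), GSK101 replicate 1 (0.0930) or GSK101 replicate 2 (0.0948), with fold changes of 0.22 to 0.26 on the log2 scale. The call was also lost with no filter on low values (0.0636) and with quantile normalization (0.108).

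Slc6a6 encodes the sodium- and chloride-coupled taurine carrier and was the gene that fell. It occupies chromosome 4, 123642210 to 123713464, minus strand. The control libraries had 37.3, 32.1 and 37.4 RPKM and the GSK101 libraries 24.3, 27.6 and 27.9. The lowest control lay 4.23 RPKM above the highest treated library. The means were 35.6 ± 3.05 and 26.6 ± 2.01 (SD, n = 3), which in log2 units is -0.42 with an SE of 0.08 (adjusted p = 0.00593 by limma). Only 3.77% of tested genes had a lower value. Leaving out each library in turn gave -0.49 to -0.35 on the log2 scale, with adjusted p from 0.0052 to 0.0206.

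Akr1b1 encodes aldose reductase, the enzyme that makes sorbitol from glucose, and occupies chromosome 4, 61706864 to 61720956, minus strand. It was among the most abundant of the 8 transcripts, with 87.9, 89.4 and 81.5 RPKM in the controls and 94.99, 89.9 and 93.1 with GSK101. The groups did not overlap, but the nearest libraries were only 0.428 RPKM apart. The log2 fold change was 0.10 with a 95% interval from -0.01 to 0.21 (adjusted p = 0.142 by limma), so a change of the size seen for Slc12a2 lay outside the interval.

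Slc6a6 and Akr1b1 are both known targets of NFAT5. In these libraries Slc6a6 fell and Akr1b1 did not pass, beside a call for Nfat5 with the limits above. Among 17 further genes of osmolyte handling and the tonicity response, 16 were in the table and 11 were tested. None rose and 2 fell by limma, which is 18.2% of the 11, against 31.9% called among all tested genes. At an unadjusted p under 0.05 there were 1 higher and 3 lower, and limma-voom called 1 and 2. The list's median log2 fold change was 0.02. Csad, an enzyme of taurine synthesis, went from 6.06 ± 0.80 RPKM down to 4.80 ± 0.25 (SD, n = 3) and fell by 0.30 in log2 units (adjusted p = 0.0458 by limma). Hspa1b, an inducible heat shock protein gene with a near-identical copy in Hspa1a, fell from 51.2 ± 4.11 to 44.0 ± 1.52, by 0.21 (adjusted p = 0.0343). Neither call held when any library other than control replicate 3 was left out, with adjusted p from 0.0852 to 0.132 for Csad and from 0.0507 to 0.104 for Hspa1b. Both were also lost with no filter (0.0993 and 0.0684), with no variance trend (0.0606 and 0.0660) and after rescaling to TPM (0.0856 and 0.107).

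Other carriers and enzymes of this group showed no call. Slc38a2, the amino acid carrier SNAT2 that shrunken cells induce, had 55.7 ± 2.80 and 51.5 ± 0.53 RPKM (adjusted p = 0.113 by limma). It was called lower without control replicate 3 (0.0403), with median-ratio scaling (0.0392), with quantile normalization (0.0458) and with the gene length trend removed (0.0083). S100a4, a calcium-binding protein gene, was very abundant at 2279 ± 119 and 2229 ± 115 RPKM and its log2 fold change was -0.03 with an interval from -0.17 to 0.10. The betaine carrier gene Slc6a12 and the second inositol carrier gene Slc5a11 were below the filter, at 0.064 and 0.028 RPKM in the controls and 0.102 and 0.014 with GSK101.

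Promoter sequence was examined because NFAT5 binds a known DNA element, called TonE, whose core is shared with other NFAT proteins. RefSeq windows on the GRCr8 build, from 250 bases before to 50 bases after an annotated start, matched 7 of the 9 listed genes, in 9 windows since Sgk1 has 3 starts. Slc5a3 was among the 7, while Nfat5 and Akr1b1 had no window and were not searched. Both strands were searched for the core GGAAA, for TGGAAA, which contains it, and for TonE, which contains both. Of the 33469 windows of all genes 62.7% held GGAAA, 22.7% TGGAAA and 5.98% TonE. The windows of the gene that fell and of the 3 steadier genes that rose are shown, 5′ to 3′ along the gene's strand, with GGAAA or its reverse complement TTTCC in capitals. Slc6a6 is on the plus strand of GRCr8, although its Rnor_6.0 position above is on the minus strand. On GRCr8 all lie on the plus strand, at chr4:125752252-125752551 for Slc6a6, chr3:33908086-33908385 for Lrrc8a, chr4:85812534-85812833 for Aqp1 and chr18:53546083-53546382 for Slc12a2.
Slc6a6: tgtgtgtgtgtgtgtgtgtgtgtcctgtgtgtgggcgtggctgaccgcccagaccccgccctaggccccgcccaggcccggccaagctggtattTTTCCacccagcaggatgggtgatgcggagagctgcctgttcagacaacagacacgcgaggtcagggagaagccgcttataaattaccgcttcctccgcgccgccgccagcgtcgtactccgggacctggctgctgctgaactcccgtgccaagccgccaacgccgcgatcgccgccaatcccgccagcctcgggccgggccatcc
Lrrc8a: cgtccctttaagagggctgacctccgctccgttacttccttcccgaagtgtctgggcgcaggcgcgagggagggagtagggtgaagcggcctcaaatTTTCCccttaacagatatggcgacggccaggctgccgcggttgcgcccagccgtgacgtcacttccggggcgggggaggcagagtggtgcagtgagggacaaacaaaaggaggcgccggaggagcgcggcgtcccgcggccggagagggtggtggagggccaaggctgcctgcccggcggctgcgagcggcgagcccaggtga
Aqp1: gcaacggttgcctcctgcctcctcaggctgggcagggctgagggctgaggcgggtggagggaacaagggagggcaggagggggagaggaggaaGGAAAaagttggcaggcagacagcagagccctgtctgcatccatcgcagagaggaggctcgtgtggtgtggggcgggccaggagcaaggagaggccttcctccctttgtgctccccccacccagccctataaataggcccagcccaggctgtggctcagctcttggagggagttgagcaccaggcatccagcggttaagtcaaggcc
Slc12a2: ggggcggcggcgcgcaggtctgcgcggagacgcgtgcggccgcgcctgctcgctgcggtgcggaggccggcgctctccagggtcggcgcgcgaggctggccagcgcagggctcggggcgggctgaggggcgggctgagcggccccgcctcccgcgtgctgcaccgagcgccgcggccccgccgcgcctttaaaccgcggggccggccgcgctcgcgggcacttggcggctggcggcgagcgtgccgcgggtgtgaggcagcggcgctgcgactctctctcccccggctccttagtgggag

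Of the 9 windows only that of Slc6a6 had a TonE match. It lay on the strand opposite to the gene, from 161 to 151 bases before the start. The windows of Lrrc8a, Aqp1 and Slc5a3 each held 1 GGAAA, and those of Slc12a2 and Slc12a4 held none. The 3 windows of Sgk1 held 0, 3 and 1 GGAAA, and 0, 1 and 1 TGGAAA in the same order. The Slc12a2 window was 80.7% G and C and the Aqp1 window 64.0%. These are letter matches in short windows, and binding was not measured.

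Slc12a2 encodes NKCC1, which carries sodium, potassium and chloride into the cell, and showed the largest rise of the 8 genes on the log2 scale. It occupies chromosome 18, 52917124 to 52985261, plus strand. The controls had 9.71, 10.3 and 10.4 RPKM and the GSK101 libraries 14.1, 14.8 and 13.6. The groups were 3.17 RPKM apart at their nearest libraries, while the SDs were 0.38 and 0.58. The log2 fold change was 0.46 with an SE of 0.05 (adjusted p = 0.000823 by limma), higher than in 91.7% of tested genes. Its exons span 6401 bases, and with the gene length trend removed the log2 fold change was 0.29, still called.

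Slc12a4 encodes KCC1, which carries potassium and chloride out, and occupies chromosome 19, 37917014 to 37938857, minus strand. Its RPKM was 25.2, 23.3 and 23.8 in the controls and 23.8, 24.3 and 23.4 with GSK101, and the groups overlapped. The log2 fold change was -0.02 with an interval from -0.12 to 0.09 (adjusted p = 0.825 by limma). The ratio of Slc12a2 to Slc12a4 within a library, in which any single scaling factor per library cancels, was 0.386, 0.441 and 0.439 in the controls and 0.595, 0.608 and 0.583 with GSK101.

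These 2 genes made up most of the RPKM of the SLC12 family in the disc cells. Of the 8 family genes in the table, Slc12a4 held 61.8 ± 1.19% of the summed RPKM in the controls and 55.8 ± 0.28% with GSK101, and Slc12a2 held 26.0 ± 1.50% and 33.2 ± 0.59% (SD, n = 3). Slc12a7, which encodes KCC4, had 0.722 ± 0.102 RPKM in the controls, 0.732 ± 0.045 after GSK101, and did not pass. The neuronal gene Slc12a5, below the filter, was at 0.060 ± 0.004 and 0.119 ± 0.013 on 9 to 20 reads per library.

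**Figure D2:**
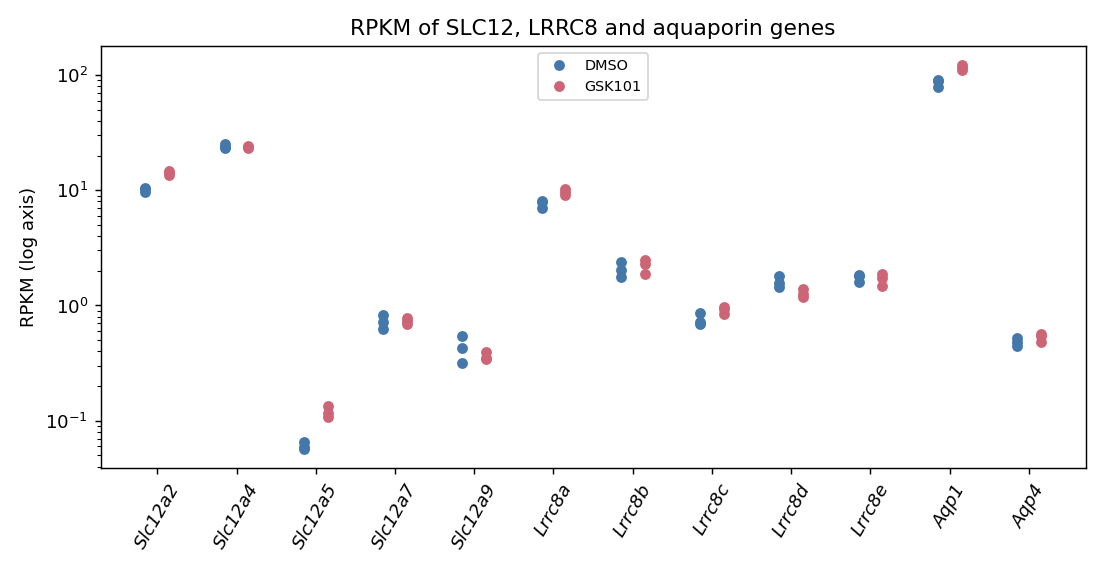
RPKM on a log axis of SLC12, LRRC8 and aquaporin genes with reads in all 6 libraries, with DMSO libraries in blue and GSK101 libraries in red. Slc12a4 and Slc12a2 lead the SLC12 genes, Lrrc8a the LRRC8 genes and Aqp1 the aquaporins in each library, and the groups do not overlap for these except Slc12a4, nor for the low genes Slc12a5 and Lrrc8d.

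The WNK kinases sense chloride and cell volume and, through the kinases SPAK and OSR1, switch NKCC1 on and the potassium-chloride cotransporters off. Of 14 listed cotransporter and kinase genes, 13 were in the table and 7 were tested, and 1 rose while 1 fell. The 7 had a median of -0.02 on the log2 scale, and 28.6% of them were called, against 31.9% of all tested genes. Wnk1 went from 12.4 ± 0.43 RPKM up to 14.5 ± 0.86 (SD, n = 3) and rose by 0.22 in log2 units (adjusted p = 0.0250 by limma), but was at -0.04 with the gene length trend removed. Without control replicate 1 or 2 or GSK101 replicate 1 or 2 its adjusted p was 0.0515 to 0.0920, and with quantile normalization 0.0816. Stk39, which encodes SPAK, fell from 7.36 ± 0.14 to 6.19 ± 0.32, by 0.23 (adjusted p = 0.0186), with 0.0501 to 0.0691 without control replicate 2 or 3 or GSK101 replicate 1 or 3. Oxsr1, which encodes OSR1, and Cab39, which encodes their scaffold MO25, did not pass, with 25.0 ± 0.53 against 24.7 ± 0.91 and 29.1 ± 0.93 against 30.6 ± 1.10 RPKM. Oxsr1 was called lower with the gene length trend removed (adjusted p = 0.0375).

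Among 9 genes of the sodium pump and other ion transporters, 8 were tested. Of these 2 rose and none fell, and their median was 0.07 on the log2 scale. Calls made up 25.0% of the 8, against 31.9% of all tested genes. No gene of this list was lower at an unadjusted p under 0.05 or by limma-voom. Atp1b1, a beta subunit of the sodium pump, had 12.2, 12.3 and 10.7 RPKM in the controls and 18.7, 17.4 and 17.5 with GSK101. The means differed 1.52-fold, or by 0.59 on the log2 scale with an SE of 0.07 (adjusted p = 0.000745 by limma), against 0.46 for Slc12a2. Exons of Atp1b1 overlap those of Nme7 on the opposite strand, and it was not stated whether counting used the strand. The more abundant Atp1b3, another beta subunit gene, had 81.8 ± 5.92 and 86.1 ± 1.84 RPKM and did not pass. Fxyd5, a regulatory subunit, rose 1.11-fold (adjusted p = 0.0331), with 0.0756 to 0.120 without control replicate 1 or 3 or GSK101 replicate 1 or 2. It was also lost with median-ratio scaling (0.0787), quantile normalization (0.0984) or no variance trend (0.0773).

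Lrrc8a encodes the subunit that every volume-regulated anion channel needs, the channel that lets chloride and taurine out of swollen cells. It occupies chromosome 3, 8802852 to 8828533, plus strand. The controls had 8.10, 7.05 and 7.93 RPKM and the GSK101 libraries 10.2, 9.59 and 9.15. The treated libraries were all above the controls, with a gap of 1.05 RPKM. The means were 7.69 ± 0.57 and 9.65 ± 0.52 (SD, n = 3). On the log2 scale this was a rise of 0.31 with an SE of 0.07 (adjusted p = 0.0125 by limma). Leaving out each library in turn gave 0.25 to 0.35 on the log2 scale, and the highest adjusted p, 0.0499 without GSK101 replicate 1, lay just under the threshold.

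Its partner subunits, which set what the channel lets through, were less abundant and none passed the test by limma, although the Lrrc8d libraries did not overlap (adjusted p = 0.103). Lrrc8b had 2.07 ± 0.30 and 2.21 ± 0.30 RPKM, Lrrc8c 0.754 ± 0.090 and 0.913 ± 0.066, Lrrc8d 1.61 ± 0.17 and 1.28 ± 0.11, and Lrrc8e 1.74 ± 0.14 and 1.69 ± 0.19 (SD, n = 3). Lrrc8a therefore took 56.3%, 55.1% and 55.1% of the summed RPKM of the 5 LRRC8 genes in the controls and 63.7%, 61.5% and 58.5% with GSK101. These shares, taken from the deposited RPKM, did not overlap between the groups.

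Of 11 further genes of volume-regulated and related anion channels, the 4 partners included, 10 were tested, 1 rose and 1 fell. The median log2 fold change was 0.05, and 20.0% of the 10 were called, against 31.9% of all tested genes. Pacc1, listed in the table under its older symbol Tmem206, encodes the acid-activated chloride channel. It had 4.49, 4.45 and 4.25 RPKM in the controls and 2.58, 2.72 and 3.30 with GSK101, a 1.53-fold fall. Its log2 value of -0.55 had an SE of 0.09 (adjusted p = 0.0034 by limma), and it was called under all 18 alternatives. Ano6, a calcium-activated scramblase and channel, rose from 15.6 ± 1.34 to 19.6 ± 0.95 RPKM, by 0.32 on the log2 scale (adjusted p = 0.0115, and 0.0756 with the gene length trend removed). Clns1a, a chaperone of splicing proteins once linked to swelling-activated currents, was at 39.3 ± 1.49 and 39.7 ± 1.67 and did not pass.

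Aqp1 encodes the water channel aquaporin 1 and was, with Akr1b1, the most abundant of the 8 transcripts. It occupies chromosome 4, 85551502 to 85569360, plus strand. The control libraries had 91.1, 88.4 and 78.9 RPKM and the GSK101 libraries 122, 118 and 109.8. The lowest treated library lay 18.7 RPKM above the highest control. The log2 fold change was 0.44 with an SE of 0.06 (adjusted p = 0.00221 by limma), higher than in 90.8% of tested genes, with 0.37 to 0.48 over all 18 alternatives.

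Aqp1 was nearly the whole of the aquaporin signal, 99.2% to 99.5% of the summed RPKM of the 6 aquaporin genes in the table in each library. Of 9 other listed aquaporin genes 5 were in the table and only Aqp4 was tested, at 0.483 ± 0.038 and 0.530 ± 0.044 RPKM (SD, n = 3). It did not pass, at adjusted p = 0.695 by limma, at an unadjusted p under 0.05 or by limma-voom. Aqp3, Aqp7, Aqp9 and Aqp11 had between 0 and 5 reads per library.

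Endothelium and red cells also carry aquaporin 1, so their markers were read beside it. Of 8 endothelial markers 7 were in the table and none reached a mean RPKM of 1 over the 6 libraries. Their sum was 0.836 to 0.976 RPKM in the controls and 1.18 to 1.39 with GSK101, mostly from Kdr at 0.551 and 1.01. Kdr, the only one tested, rose 1.84-fold (adjusted p = 0.00875 by limma), while Cdh5 was at 0.033 and 0.008 and Vwf at 0.029 and 0.036. The 3 red cell genes in the table, of 5 listed, had a summed RPKM of 0.107 to 0.327 in the controls, against 0.106 to 0.331 after GSK101. The part of these cells in the Aqp1 result was not tested.

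Sgk1 encodes a kinase induced by cell shrinkage and by glucocorticoid and mineralocorticoid hormones. It occupies chromosome 1, 24185435 to 24302298, minus strand. Its RPKM was 2.997, 2.82 and 2.64 in the controls and 3.06, 2.97 and 2.69 with GSK101, and the groups overlapped. The log2 fold change was 0.04 with an interval from -0.14 to 0.22 (adjusted p = 0.743 by limma), on 424 to 501 reads per library. Sgk3, a relative with endosomal targets, was at 0.635 ± 0.090 and 0.628 ± 0.155 RPKM, and Sgk2 had at most 2 reads in any library.

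Of 13 genes around SGK1, its hormone receptors and its partners, 12 were in the table and 8 were tested, and 3 rose while 1 fell. Their median was 0.20 on the log2 scale. Nr3c1, the glucocorticoid receptor gene, rose from 8.56 ± 0.27 to 10.2 ± 0.42 RPKM (SD, n = 3; adjusted p = 0.0129 by limma, 0.0557 without GSK101 replicate 1 and 0.338 with the gene length trend removed). Nedd4, a ubiquitin ligase gene at 182 ± 8.49 and 213 ± 6.14, rose by 0.22 on the log2 scale (adjusted p = 0.00929, and 0.140 with that trend removed). Hsd11b1, which encodes an enzyme that regenerates active glucocorticoid, rose 1.16-fold with adjusted p = 0.0488, and the call was lost without any 1 library other than GSK101 replicate 3, with adjusted p from 0.0669 to 0.149. It was also lost under 5 of the other alternatives, with 0.0685 to 0.337. Tsc22d3, a leucine zipper gene that glucocorticoids induce, fell from 11.6 ± 0.75 to 9.35 ± 0.47, by 0.30 (adjusted p = 0.0103), and was called lower under all 18 alternatives. Nedd4l, the ligase that SGK1 phosphorylates, and Pdpk1, the kinase that activates SGK1, did not pass, with 5.06 ± 0.40 against 5.87 ± 0.31 and 4.69 ± 0.42 against 5.63 ± 0.58 RPKM, although Pdpk1 did without GSK101 replicate 3 (adjusted p = 0.0366) and Nedd4l by limma-voom (0.0305).

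**Figure D3:**
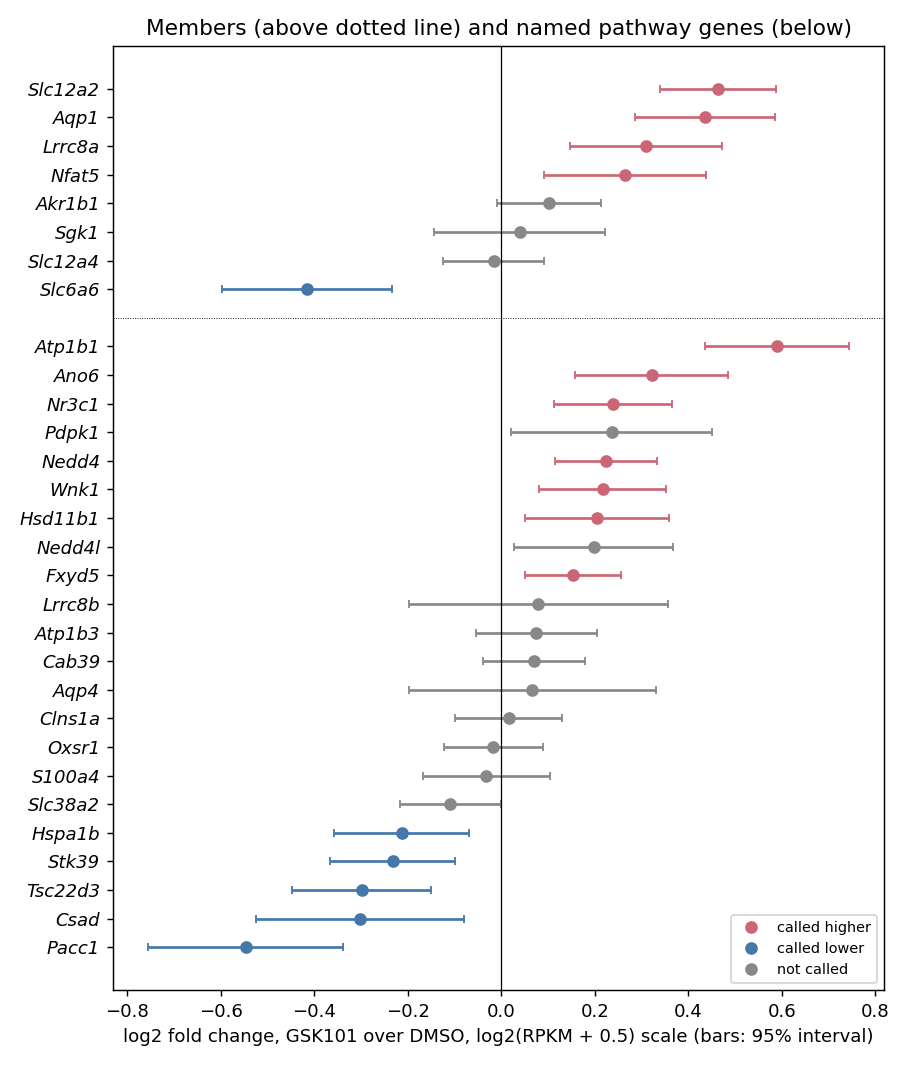
Log2 fold change of GSK101 over DMSO with its 95% interval, on the log2(RPKM + 0.5) scale, for the 8 genes above the dotted line and for named genes of the pathway lists below it. Red is called higher, blue called lower and grey not called. Slc12a2 and Aqp1 lead the 8 genes at 0.46 and 0.44, and Atp1b1 at 0.59 and Pacc1 at -0.55 are the extremes of the lower set.

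By level, the 8 genes fell into an order with overlaps at some places, and it differed in part between the groups. In the controls Akr1b1 and Aqp1 shared the top at 86.3 ± 4.22 and 86.1 ± 6.39 RPKM, with overlapping libraries. Slc6a6, Slc12a4, Slc12a2 and Lrrc8a followed, each apart from the next, and Sgk1 and Nfat5 overlapped at the bottom at 2.82 ± 0.18 and 2.76 ± 0.19. With GSK101, Aqp1 at 117 ± 6.18 lay apart from Akr1b1 at 92.6 ± 2.59, Slc6a6 at 26.6 ± 2.01 overlapped Slc12a4 at 23.8 ± 0.46, and Nfat5 at 3.42 ± 0.14 lay above Sgk1 at 2.91 ± 0.19 (SD, n = 3). The last of these rests on the rise of Nfat5, which was not kept with the gene length trend removed.

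**Figure D4:**
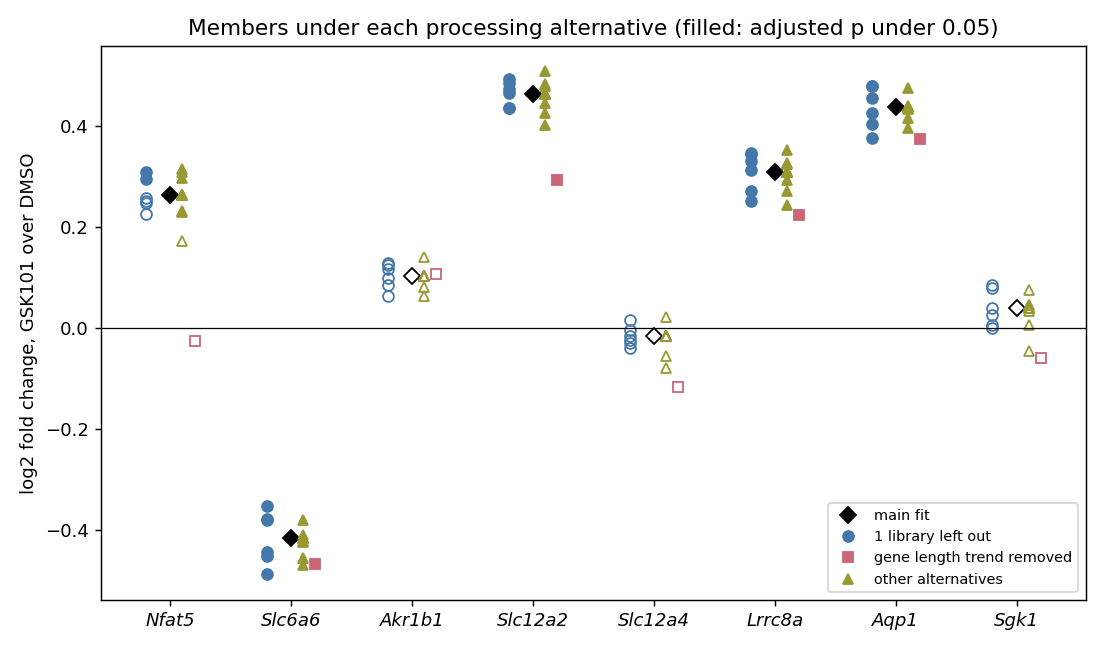
Log2 fold change of each of the 8 genes in the main fit (diamond), with 1 library left out (circles), with the gene length trend removed (square) and under the other alternatives (triangles), filled where the adjusted p by limma was under 0.05. Nfat5 drops from 0.26 to -0.03 with the length trend removed, while Slc12a2, Lrrc8a, Aqp1 and Slc6a6 stay filled throughout.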

How the data were processed

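The authors deposited 1 table of RPKM values for 6 libraries of polyadenylated RNA. The submitters' processing notes name the build Rnor_6.0, edgeR 3.12.1, Subread 1.5.1 with featureCounts, STAR 2.5.3a and Trimmomatic 0.36, with no roles stated. Per the labels' protocols the kit was stranded and marked molecules with 8 random bases. Collapsing of duplicates, use of strand and treatment of multi-mapped reads are not stated.

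RPKM multiplied by gene length gave whole multiples of 1 read for 100% of values (tolerance 0.01). Even numbers made up 71.3% to 74.7% of values of 1 to 10 reads; mates may have been counted separately.

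limma 3.58.1 (R 4.3.3) was fitted to log2(RPKM + 0.5) of all genes that reached 0.5 RPKM in 3 or more libraries, with group as the only term and a mean-variance trend, and was tested on simulated data. Fold changes on this scale understate those of low genes. The 18 alternatives were pseudocounts of 0.1 and 1, no filter or one at an RPKM of 1, rescaling to TPM, median-ratio scaling, quantile normalization, no variance trend, a robust variance model, limma-voom on the recovered reads, taking out the trend with gene length in every library (loess, span 0.3), a block for the replicate number, and dropping each of the 6 libraries. Samples were grouped by their titles.

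The genes, lists and alternatives were chosen with earlier results of these data known. Named genes are all members; from each list up to 6 called genes whose groups did not overlap and whose higher group averaged 1 RPKM or more, by smallest adjusted p, and up to 2 uncalled genes of highest mean RPKM. Relatives of the members are given by level. Some genes that fall under these rules are not reported here. Slc12a5, Slc6a12 and Slc5a11 were added after their values were seen.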

Additional observations from a re-analysis of the deposited data

How the results depend on the processing

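The count of the 8 genes called higher was 3 to 4 over the 18 alternatives and the count called lower was 1 in each, with Nfat5 the gene that was lost. Over all genes the counts were 1835 to 2945 higher and 1055 to 2141 lower. Of the 45 tested pathway list genes 7 were called higher and 5 lower, or 26.7% against 31.9% of all tested genes, but 2 and 8 with the gene length trend removed. There were 4 higher with quantile normalization, and 3 lower with no filter, with no variance trend or after rescaling to TPM. Leaving out 1 library gave 3 to 8 higher and 2 to 5 lower. The cause of these moves was not tested, and the left-out fits also had fewer samples.

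Some log2 fold changes changed sign. With the gene length trend removed, Nfat5 was at -0.025, Wnk1 at -0.042, Sgk1 at -0.059, Aqp4 at -0.076 and Cab39 at -0.033. With quantile normalization, Sgk1 was at -0.045, Clns1a at -0.028 and S100a4 at 0.056, and with median-ratio scaling Clns1a was at -0.024. After rescaling to TPM, Slc12a4 was at 0.021, Oxsr1 at 0.020 and S100a4 at 0.0058. Leaving out 1 library gave -0.039 to 0.015 for Slc12a4, -0.00032 to 0.086 for Sgk1, -0.018 to 0.038 for Clns1a, -0.0042 to 0.17 for Lrrc8b and -0.038 to 0.012 for Oxsr1. None of these sign changes passed the threshold, and of these genes only Nfat5 and Wnk1 were called as reported.

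The labels do not say whether libraries with the same replicate number belong together. Such libraries had correlations of 0.054, -0.063 and 0.052 in their deviations from the group means, across tested genes. With only 3 libraries per group, these values cannot exclude a pairing. With the replicate number as a block, 2508 genes were higher and 1437 lower, and Nfat5 lost its call (adjusted p = 0.0599 by limma). Depth is known only as counted reads, and for low genes such as Aqp3, Aqp7, Aqp9 and Aqp11, with 0 to 5 reads, a change was not detectable.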
